A study of Mus musculus with 22 samples.

Results

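The genes described here are Tmem229a, Prr5l, Plekha1, Alox8, Igsf1 and Bbox1, 6 of the 29367 genes in the count table. They were listed as markers of astrocytes of the myelinated nerve because their ribosome-bound mRNA was higher there than in the nerve head, so the regional difference itself is the basis of the choice and is given below as a description only. The libraries came from adult mice that carried the ribotag allele of the strain B6J.129(Cg)-Rpl22tm1.1Psam/SjJ and the Cre transgene Tg (GFAP-Cre) 73.12Mvs/J on a B6.Cg background, labelled WT for genotype, in which a constitutive Cre under the mouse GFAP promoter places an HA tag on the ribosomal protein Rpl22. In all groups 1 eye had been injected with microbeads, which raise intraocular pressure (IOP), and no uninjected sample was analysed here. Each library was a pool of 4 mice (2 males and 2 females), and the tagged ribosomes were pulled down with an anti-HA antibody, so that the poly(A) RNA measured is that bound to tagged ribosomes. The groups were the optic nerve head (ONH), the unmyelinated start of the nerve, at day 7 (n = 4) and day 30 (n = 7), and the optic nerve proper (ONP), the adjoining myelinated stretch of equal length from the same mice, at day 7 (n = 4) and day 30 (n = 7).

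Astrocytes of the nerve head surround bare axons, whereas those of the optic nerve proper lie among the myelin sheaths that oligodendrocytes form around the axons. Their known work includes buffering of potassium and glutamate, supply of metabolites to axons, and lipid handling. The 6 genes belong to several pathways. Plekha1 (also named TAPP1) and Prr5l (also named Protor-2) sit in phosphoinositide and mTOR signalling: Plekha1 is an adaptor that binds the lipid PI(3,4)P2, and Prr5l binds mTOR complex 2 (mTORC2). Alox8 is an arachidonate lipoxygenase, an enzyme that oxygenates polyunsaturated fatty acids. Bbox1 is gamma-butyrobetaine hydroxylase, which makes the last step of carnitine synthesis, carnitine being the carrier that takes long-chain fatty acids into mitochondria. Igsf1 is a membrane glycoprotein of the immunoglobulin superfamily known for its part in the pituitary and thyroid hormone axis, and Tmem229a encodes a multi-pass membrane protein.

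The genes lie on 5 chromosomes (GRCm38). Tmem229a (ENSMUSG00000048022) is at chr6:24951141-24956297, Prr5l (ENSMUSG00000032841) at chr2:101714285-101883027, Bbox1 (ENSMUSG00000041660) at chr2:110262697-110314560, Alox8 (ENSMUSG00000020891) at chr11:69183932-69197843 and Igsf1 (ENSMUSG00000031111) at chrX:49782536-49797749, all on the minus strand, and Plekha1 (ENSMUSG00000040268) is on the plus strand at chr7:130865756-130913312. Prr5l and Bbox1 share a chromosome but are 8.38 Mb apart. Of the exon bases, only 78 of the 4967 of Prr5l overlap an exon of another gene (Gm13905, on the other strand), and reads from the pair cannot be told apart there. Alox8, Igsf1 and Bbox1 are the members that rose together in the ONP between the days, so the 250 bases before their start sites are shown, 5′ to 3′ on the strand of the gene, from RefSeq (GRCm38.p6, Alox8 chr11:69197844-69198093, Igsf1 chrX:49797746-49797995, the most upstream of its 3 start sites, and Bbox1 chr2:110305726-110305975). The Bbox1 start used by RefSeq lies inside the longer span of the gene given above. Capitals mark a match to a searched motif.
Alox8: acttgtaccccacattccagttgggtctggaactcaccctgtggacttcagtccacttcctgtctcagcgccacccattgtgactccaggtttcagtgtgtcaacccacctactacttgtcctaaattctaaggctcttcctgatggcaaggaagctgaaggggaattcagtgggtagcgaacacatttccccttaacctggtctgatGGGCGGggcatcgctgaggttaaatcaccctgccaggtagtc
Igsf1: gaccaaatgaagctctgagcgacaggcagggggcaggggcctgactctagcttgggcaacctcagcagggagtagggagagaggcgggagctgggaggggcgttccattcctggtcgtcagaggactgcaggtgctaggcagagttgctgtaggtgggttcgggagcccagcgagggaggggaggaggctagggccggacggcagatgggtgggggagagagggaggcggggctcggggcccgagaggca
Bbox1: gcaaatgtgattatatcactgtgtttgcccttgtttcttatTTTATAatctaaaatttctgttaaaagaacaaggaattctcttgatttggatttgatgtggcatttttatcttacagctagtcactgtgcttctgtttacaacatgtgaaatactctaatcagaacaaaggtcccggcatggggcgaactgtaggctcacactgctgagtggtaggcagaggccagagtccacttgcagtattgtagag

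Both strands were searched for the core promoter box TATAAA, the NF-Y box CCAAT, the Sp1 box GGGCGG, the E-box CACGTG, the nuclear receptor element AGGTCA, the AP-1 element TGACTCA with its reverse complement TGAGTCA, the NFI palindrome, the STAT element TTCNNNGAA and the SOX element AACAAT. The Alox8 window held a single GGGCGG, 42 bases before the start, a motif found in 32.7% of the 32817 windows of this length. The Bbox1 window held TTTATA, which is TATAAA on the other strand, 209 bases before the start, and 12.4% of all windows held that motif. None of the searched motifs was in the Igsf1 window. The Igsf1 window at the most downstream of its start sites, not printed, held CCAAT and GGGCGG at 3 places each and AGGTCA at 1. The GC content of the printed windows was 52.4% (Alox8), 67.2% (Igsf1) and 39.6% (Bbox1), beside a median of 52.4% over all windows.

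Library totals ranged from 16292489 to 33307092 counts, so that 3 counts, taken as the floor of a library, correspond to 0.0912 to 0.192 CPM, that is counts per 1000000 after TMM normalisation. A floor of this kind covers counting error only, whereas the SDs and SEs given below include the spread between pools. The 10 astrocyte markers (Gfap, Aqp4, Sox9 and others) were all present and summed to 14645 to 34046 CPM across the libraries, but the 10 oligodendrocyte markers (Mbp, Mog, Mag and others) were also present in every group. They summed to 18774 to 36288 CPM in the ONH at day 7, 81039.5 to 108852 in the ONP at day 7, 13405 to 40379.7 in the ONH at day 30 and 25674 to 84787 in the ONP at day 30. ONH day 30 replicate 7 stood apart, with a sum of 220.55 CPM over the 5 pituitary markers in the table, the next highest library being ONH day 30 replicate 4 at 30.0494 CPM, and the highest oligodendrocyte and microglia sums of the ONH libraries (40379.7 and 3386 CPM). In ONP day 30 replicate 5 the oligodendrocyte sum, 84787 CPM, was within the range of the day 7 ONP libraries. The regional ratios and spreads of day 30 and the fits of the members are therefore also given without the library concerned.

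Over the 22 libraries the 6 genes did not share a pattern. Tmem229a, Prr5l and Plekha1 were abundant in the ONP at both days, and their ratio of ONP to ONH was smaller at day 30 than at day 7. Alox8, Igsf1 and Bbox1 were near the detection floor in the ONH, low in the ONP at day 7 and about 10 times as high there or more at day 30. Because the pulled-down RNA of a whole tissue piece was measured, fewer cells of a type and less RNA per cell cannot be told apart in any of these values.

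**Figure D1:**
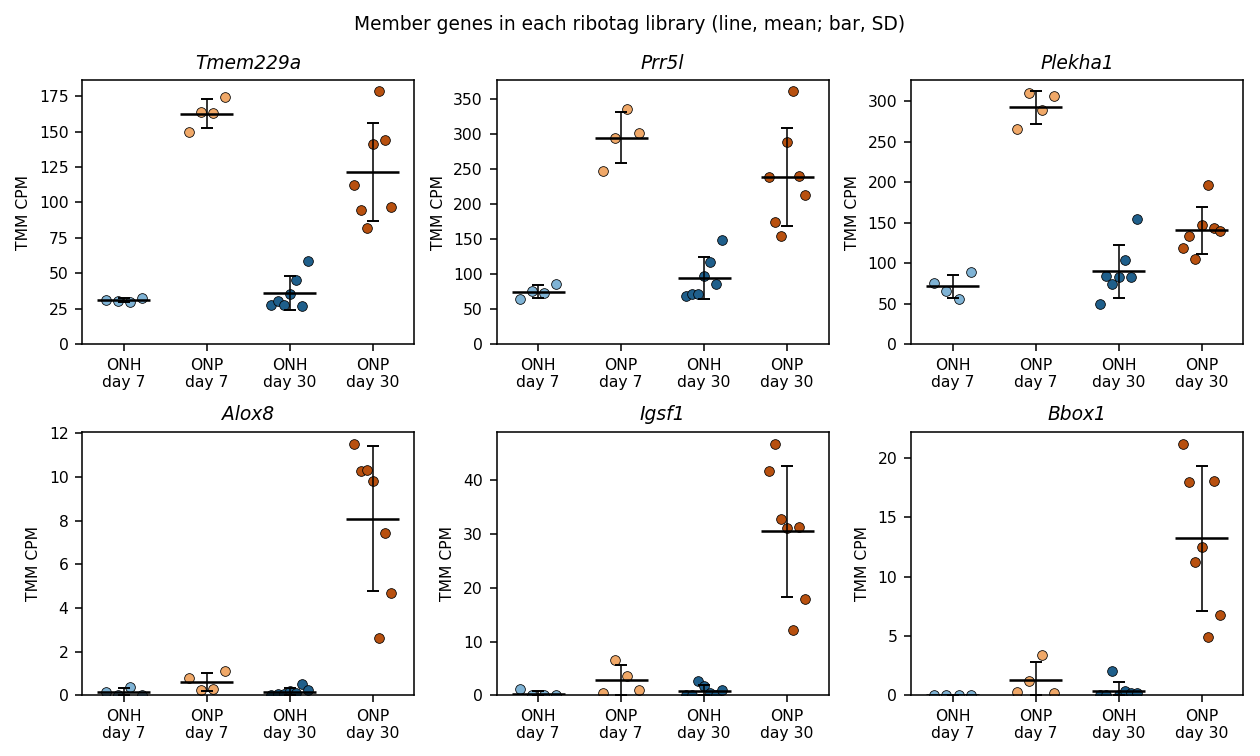
Each panel plots 1 gene in TMM-normalised CPM in the 22 ribotag libraries of 4 groups; a dot is a library, the line the mean and the bar the SD, cut off at 0. Tmem229a, Prr5l and Plekha1 are high in both ONP groups, whereas Alox8, Igsf1 and Bbox1 are high in the ONP at day 30 and at most 6.52 CPM in the other groups.

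Tmem229a had the tightest values at day 7. Its CPM was 31.3, 30.5, 29.9 and 32.5 in the ONH and 149.6, 164.1, 163.0 and 174.3 in the ONP, so the ONP mean was 5.24 times that of the ONH. At day 30 the lowest, median and highest values were 26.6, 30.5 and 58.7 in the ONH and 81.9, 112 and 178.5 in the ONP, a ratio of means of 3.39. The groups of a day did not overlap on either day.

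Prr5l, the mTORC2-binding protein, was the most abundant member per kilobase of exon, at 59.3 ± 7.42 CPM per kb in the ONP at day 7 (SD, n = 4). Its CPM was 63.5, 74.8, 73.3 and 85.7 in the ONH and 246.0, 294.2, 335.5 and 301.5 in the ONP at day 7. At day 30 it was 67.8, 85.5 and 148.0 (lowest, median, highest) in the ONH and 153.5, 237.8 and 361.2 in the ONP. The regional groups again did not overlap on either day, and the ratio of means went from 3.96 to 2.53.

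Plekha1, the PI(3,4)P2 adaptor, had the smallest regional ratio at day 30. Its CPM at day 7 was 75.7, 65.0, 55.6 and 88.9 in the ONH and 265.7, 310.0, 288.9 and 306.0 in the ONP, a ratio of means of 4.10. At day 30 the lowest, median and highest were 48.8, 83.0 and 153.9 in the ONH and 104.8, 140.03 and 196.0 in the ONP, a ratio of 1.56. The groups overlapped at day 30, where ONH replicate 7 was above 6 of the 7 ONP libraries.

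Alox8, the lipoxygenase, was at the edge of detection outside the ONP at day 30. In the ONH it had 3, 1, 7 and 0 counts at day 7 and 0 to 12 counts at day 30, and only 1 of 4 and 3 of 7 libraries exceeded the floor. In the ONP it was 0.79, 0.26, 0.29 and 1.11 CPM at day 7 and 2.62, 9.80 and 11.5 CPM (lowest, median, highest) at day 30. The ratio of the ONP to the ONH mean was 4.25 at day 7, when the ranges overlapped, and 47.1 at day 30, when they did not.

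Igsf1 was the most abundant of these 3 genes per kilobase in the ONP at day 30, at 5.30 ± 2.11 CPM per kb, beside 3.002 ± 1.38 for Bbox1 and 2.27 ± 0.93 for Alox8 (SD, n = 7). In the ONH it had 21, 0, 0 and 1 counts at day 7, so that replicate 1 held nearly all of them, and 0, 0.47 and 2.61 CPM (lowest, median, highest) at day 30. In the ONP it was 0.37, 6.52, 3.56 and 1.07 CPM at day 7 and 12.2, 31.2 and 46.7 CPM at day 30. The regional ranges overlapped at day 7 and not at day 30, and the ratio of means went from 9.57 to 36.7. Without ONH day 7 replicate 1, a single count was left in the ONH at day 7, and the fitted log2 ratio of that day moved from 3.25 to 7.07.

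Bbox1, the carnitine-synthesis enzyme, had 0 counts in all 4 ONH libraries at day 7 and was 0.31, 1.21, 3.44 and 0.23 CPM in the ONP. Set against the floor of 3 counts per library, the ONP mean at day 7 was at least 8.78-fold higher. At day 30 the lowest, median and highest were 0, 0.16 and 2.01 CPM in the ONH and 4.95, 12.4 and 21.1 CPM in the ONP, a ratio of means of 32.7. The highest ONH value of both Bbox1 and Igsf1 at day 30 was in replicate 3, and no ONH library reached the lowest ONP library of that day.

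In counts over the members, the ONP libraries were above all ONH libraries for 4 of 6 genes at day 7 and for 5 of 6 at day 30. Of all genes tested, 11.9% did so at day 7 and 8.04% at day 30, but since the members were chosen on this contrast nothing is read from the comparison. The fitted log2 fold change of the ONP over the ONH was 2.36 ± 0.14 at day 7 and 1.71 ± 0.22 at day 30 for Tmem229a. For Prr5l it was 1.96 ± 0.16 and 1.29 ± 0.21, and for Plekha1 2.01 ± 0.17 and 0.60 ± 0.20 (all ± SE). Each of these 3 ratios was thus smaller at day 30. Those of Alox8, Igsf1 and Bbox1 at day 30 were 5.48 ± 0.59, 5.19 ± 0.78 and 4.998 ± 0.79, and at day 7 Alox8 and Bbox1 did not pass the filter on low counts while Igsf1 was at 3.25 ± 1.45.

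At day 30 the ONH and ONP libraries of a replicate number were taken as coming from the same mice, so a ratio can be given for each pool. The ONP was higher in 7 of 7 pools for every member except Plekha1, for which it was higher in 6 of 7. The ratio of Tmem229a ranged from 1.65 to 5.42 with a median of 3.95, that of Prr5l from 1.44 to 3.51 with a median of 2.80, and that of Plekha1 from 0.91 to 2.42 with a median of 1.73. Pool 7 gave the lowest ratio of all 3 genes. Without its ONH library, the fitted log2 ratios at day 30 were 1.90 for Tmem229a, 1.46 for Prr5l and 0.81 for Plekha1, which remained below those of day 7. The ratios of means at day 30 were then 3.79, 2.80 and 1.77 for these genes and 51.8, 37.7 and 29.7 for Alox8, Igsf1 and Bbox1, and without ONP replicate 5 they were 3.12, 2.31, 1.46, 52.4, 40.4 and 36.1 in the same order of genes. For Alox8, Igsf1 and Bbox1 a ratio could be formed only in the 3, 4 and 3 pools whose ONH library held more than 3 counts, and it ranged from 14.4 to 46.8, 12.6 to 25.8 and 5.58 to 83.7.

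**Figure D2:**
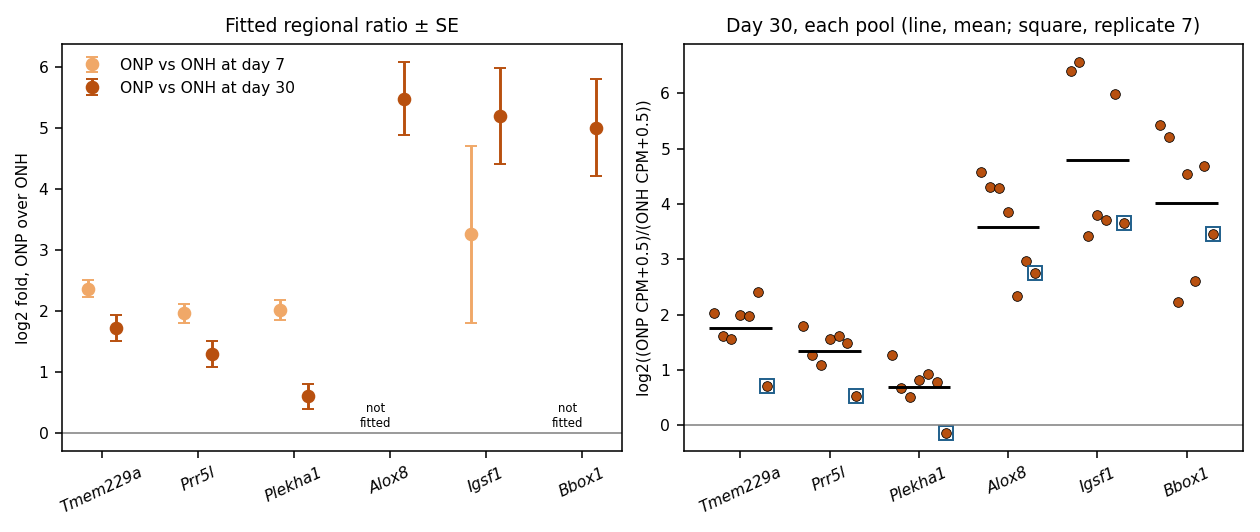
The left panel plots the fitted log2 ratio of the ONP over the ONH (± SE) for each gene at day 7 and day 30, with genes that failed the filter on low counts marked as not fitted; the right panel plots the log2 ratio of each of the 7 pools at day 30 after adding 0.5 CPM, with the mean as a line and pool 7 boxed. The ratios of Tmem229a, Prr5l and Plekha1 are lower at day 30 (1.71, 1.29 and 0.60) than at day 7 (2.36, 1.96 and 2.01), and pool 7 is the lowest for all 3.

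Whether the regional ratio differed between the days was tested by the interaction of region and day over all 4 groups. This interaction is built from the regional values on which the members were chosen, so its p-values are not independent of that choice. The ratio of Plekha1 was smaller at day 30 by 1.43 ± 0.30 on the log2 scale (fitted difference −1.43, SE 0.30, adjusted p = 0.0294). It was the single member past the threshold, and of the 16748 genes tested 0.543% were past it in either direction and 0.394% downwards. The differences of Tmem229a (−0.67 ± 0.29, adjusted p = 0.353) and Prr5l (−0.68 ± 0.30, adjusted p = 0.354) had the same sign without passing. Those of Alox8 (3.37 ± 1.15, adjusted p = 0.198) and Igsf1 (1.86 ± 1.54, adjusted p = 0.681) were positive with wide errors. No value is given for Bbox1, whose ONH counts at day 7 were all 0. The call of Plekha1 held in 10 of the 22 fits that each left out 1 library, with adjusted p between 0.0111 and 0.1002 and a difference between −1.54 and −1.25. It was lost without any 1 of the 4 ONP day 7 libraries (adjusted p 0.0539 to 0.1002), of ONH day 7 replicates 1 and 2, of ONH day 30 replicates 2 and 5 and of ONP day 30 replicates 1, 2, 3 and 6, and remained without ONH day 30 replicate 7 (−1.25, adjusted p = 0.0291).

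The time comparison within a region uses the libraries of the regional contrast on which the members were chosen, so it is not independent of the choice. Alox8, Igsf1 and Bbox1 also passed the filter on low counts through their ONP day 30 libraries. Their adjusted p-values are therefore given as a description. In the ONP, Alox8, Igsf1 and Bbox1 rose from day 7 to day 30 and Plekha1 fell, while Tmem229a and Prr5l were not past the threshold. Thus 4 of 6 members were called, where 17.0% of the 15491 genes tested were (7.82% higher and 9.21% lower), and nothing is read from that count. The means of Alox8, Igsf1 and Bbox1 were 13.2, 10.6 and 10.2 times as high at day 30. Their fitted log2 fold changes were 3.66 ± 0.54 (adjusted p = 0.00154), 3.39 ± 0.64 (adjusted p = 0.00511) and 3.29 ± 0.70 (adjusted p = 0.00907). In each of the 3 the day 30 libraries lay above all day 7 libraries, as was true of 6.58% of the genes tested. Igsf1 and Bbox1 missed the threshold when all 4 groups shared a fit (adjusted p = 0.0516 and 0.0507).

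Plekha1 fell by 1.09 ± 0.14 on the log2 scale (adjusted p = 0.000776), its mean at day 7 being 2.08 times that at day 30, and no day 30 library reached the lowest day 7 library, as held for 5.55% of all genes. For Tmem229a the log2 fold change was −0.46 ± 0.19 (adjusted p = 0.111) and for Prr5l −0.34 ± 0.20 (adjusted p = 0.262), with overlapping ranges. Without ONP day 30 replicate 5, which had the highest value of both genes, Tmem229a passed (−0.54, adjusted p = 0.0295) and Prr5l remained short of the threshold (−0.44, adjusted p = 0.0778).

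In the ONH no member was called. All 6 had overlapping ranges, 0 of the 4 that passed the filter on low counts were past the threshold, and 0% of the 15668 genes tested were past it by edgeR (13.9% at an unadjusted p under 0.05, of which none was a member). DESeq2 called 448 genes there and again 0 members. The log2 fold changes were 0.21 ± 0.23 for Tmem229a, 0.35 ± 0.22 for Prr5l, 0.34 ± 0.25 for Plekha1 and 1.48 ± 1.62 for Igsf1. The positive values of the first 3 became 0.04, 0.19 and 0.15 without ONH day 30 replicate 7. Alox8 and Bbox1 were too low for a test, and no fold is given for them.

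**Figure D3:**
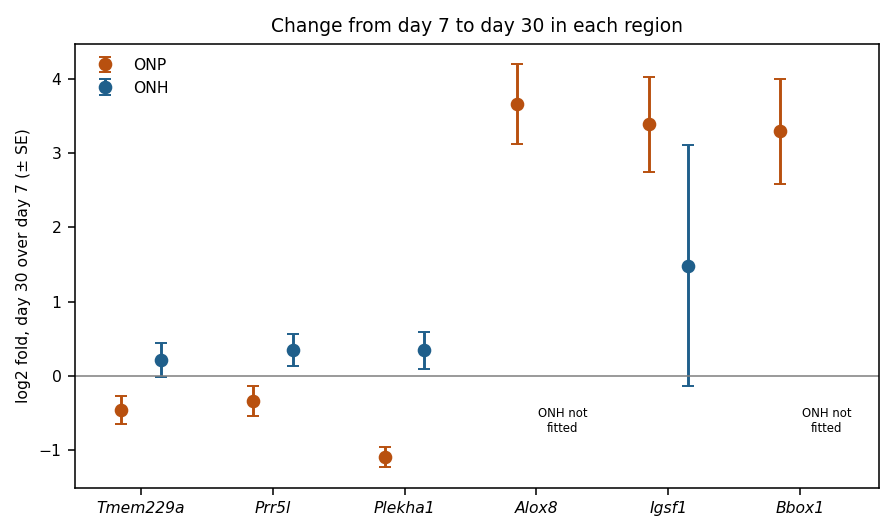
The log2 fold change from day 7 to day 30 (± SE) is plotted for each gene in the ONP and in the ONH, where Alox8 and Bbox1 failed the filter on low counts. In the ONP, Alox8, Igsf1 and Bbox1 lie between 3.29 and 3.66 and Plekha1 at −1.09, whereas the ONH values have errors that are wider than their distance from 0 for Igsf1 and Tmem229a.

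The spread between pools of a group also differed between the genes and the days. Tmem229a varied by 3.65% (coefficient of variation, CV) over the ONH pools and by 6.23% over the ONP pools at day 7, and by 33.6% and 28.5% at day 30. In the ONH at day 7, 99.4% of all genes tested had an SD of log2(CPM + 0.5) at least as large as that of Tmem229a, and this share was 93.1% in the ONP at day 7, 43.2% in the ONH at day 30 and 33.6% in the ONP at day 30. Plekha1 went from 6.88% to 20.4% in the ONP and Prr5l from 12.5% to 29.5%. The low genes showed the opposite order in the ONP, from 67.5% to 41.1% for Alox8, from 96.7% to 39.9% for Igsf1 and from 115% to 46.1% for Bbox1, their day 7 values resting on few counts. Igsf1 was among the most variable genes of the ONP at day 7, where 0.803% of genes had an SD as large, and its highest pool was 17.8 times its lowest. Without ONH replicate 7 the CV of Tmem229a in the ONH at day 30 was 22.4%. Without ONP replicate 5 the day 30 CVs in the ONP were 23.1% for Tmem229a, 22.4% for Prr5l, 12.4% for Plekha1, 27.9% for Alox8, 29.7% for Igsf1 and 36.6% for Bbox1. Day 7 rests on 4 pools and day 30 on 7, and the difference in spread was not tested.

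**Figure D4:**
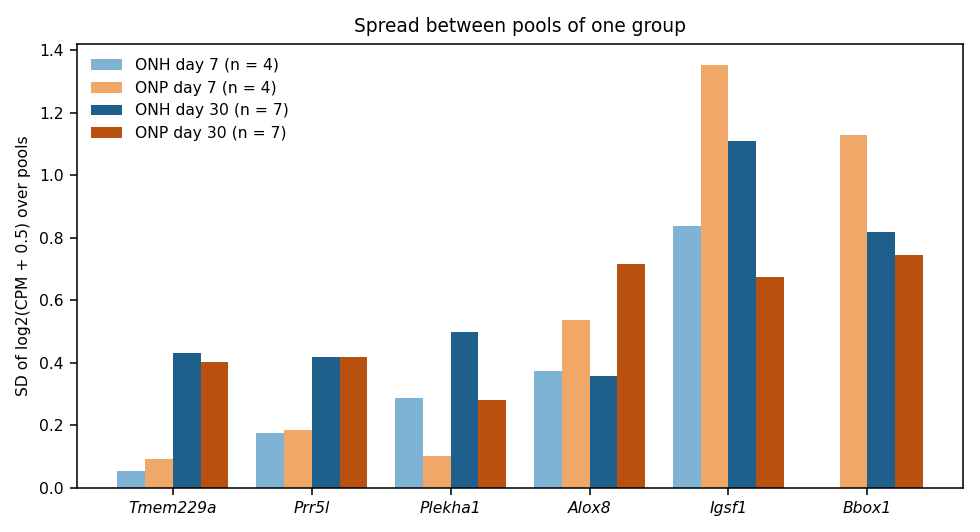
Bars give the SD of log2(CPM + 0.5) over the pools of each group, 4 pools at day 7 and 7 at day 30. The bars of Tmem229a are 0.05 and 0.09 at day 7 and 0.43 and 0.40 at day 30, and the tallest bar is that of Igsf1 in the ONP at day 7, at 1.35; Bbox1 has no bar in the ONH at day 7 because all of its counts are 0.

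Among the 7 ONP pools of day 30, replicate 5 was at opposite ends for the members. It had the highest Tmem229a, Prr5l and Plekha1 (178.5, 361.2 and 196.0 CPM) and the lowest Alox8, Igsf1 and Bbox1 (2.62, 12.2 and 4.95 CPM). Replicate 7 was second lowest in each of Alox8, Igsf1 and Bbox1 (4.67, 17.9 and 6.78 CPM), and replicate 3 was lowest in each of Tmem229a, Prr5l and Plekha1 (81.9, 153.5 and 104.8 CPM). The oligodendrocyte marker sum was highest in replicate 5 (84787 CPM) and lowest in replicate 3 (25674 CPM), so it shared both ends with the first 3 genes. The microglia marker sum was 3071 and 3672 CPM in replicates 5 and 7, the pools with the lowest Alox8, Igsf1 and Bbox1, and 212.9 to 1038 CPM in the other 5 pools. The astrocyte marker sum was lowest in the same replicates 5 and 7 (16008 and 21208 CPM), and 24313 to 34046 CPM in the other 5 pools. The part of microglia, astrocytes or oligodendrocytes in these orders was not tested. Without replicate 5 the log2 fold changes from day 7 to day 30 in the ONP were 3.84, 3.56 and 3.46 for Alox8, Igsf1 and Bbox1 (adjusted p = 0.000653, 0.00288 and 0.00548). These too are a description.

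The label of astrocyte markers was set against the marker genes. Likeness of 2 genes was measured as the root-mean-square (RMS) difference of their centred log2(CPM + 0.5) over the 22 libraries, which share depth and tissue makeup, so that a smaller value means a closer profile. For Tmem229a, Prr5l and Plekha1 the median RMS to the 10 oligodendrocyte markers was 0.51, 0.43 and 0.40, and to the 10 astrocyte markers 1.12, 0.95 and 0.89. These values are a description, since the members were chosen for being higher in the ONP, where the oligodendrocyte markers are higher too. When each gene was instead centred on the mean of each group, which takes out the differences of region and day, the medians were 0.30, 0.28 and 0.33 to the oligodendrocyte and 0.62, 0.66 and 0.62 to the astrocyte markers. A gene with no spread within groups would have given 0.31, 0.32 and 0.32, and an unrelated gene with spread of its own a larger value. The nearest oligodendrocyte markers were at 0.19, 0.16 and 0.25 and the farthest at 0.38, 0.35 and 0.37. The nearest astrocyte markers were at 0.39, 0.36 and 0.37. For Alox8, Igsf1 and Bbox1 the same medians were 1.61, 2.23 and 1.94 against 1.68, 2.38 and 1.99, so neither list was close. Within groups they were 0.72, 1.05 and 0.95 against 0.55, 0.92 and 0.70, where a gene with no spread within groups would have given 0.48, 0.90 and 0.71. Nearest genes were sought among the 1645 with an SD of at least 1 over the libraries, which leaves out genes of smaller spread, such as Cnp (0.27 from Prr5l and 0.28 from Plekha1), Olig1 (0.23 and 0.34) and Prr5l itself. Among the genes searched, those most like Tmem229a were Pip4k2a, a phosphoinositide kinase (RMS 0.24), Sox10, a transcription factor of the oligodendrocyte lineage (0.27), and Olfml1 (0.27). Nearest to Prr5l were Epb41l3 (0.24), Olfml1 (0.25) and Tmem229a itself (0.25), and nearest to Plekha1 were Tmem151a, the palmitoyltransferase gene Zdhhc9 and the Hedgehog-binding Hhip (0.43, 0.43 and 0.44).

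The other 3 members had their own neighbours. Igsf1 and Bbox1 were among each other's nearest genes (RMS 0.74), followed or joined by Lrrc55, which encodes an auxiliary subunit of potassium channels (1.06 to Igsf1, 0.74 to Bbox1), Ucma (1.14 to Igsf1) and Hhipl1 (0.74 to Bbox1). Lrrc55 was 0.04 to 0.70 CPM in the ONP at day 7 and 4.16 to 18.6 CPM at day 30. Nearest to Alox8 were C130093G08Rik, the potassium channel subunit gene Kcns1 and Gm37069 (0.51, 0.62 and 0.68). C130093G08Rik had 0 counts in the ONP at day 7 and 0.84 to 7.70 CPM there at day 30.

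**Figure D5:**
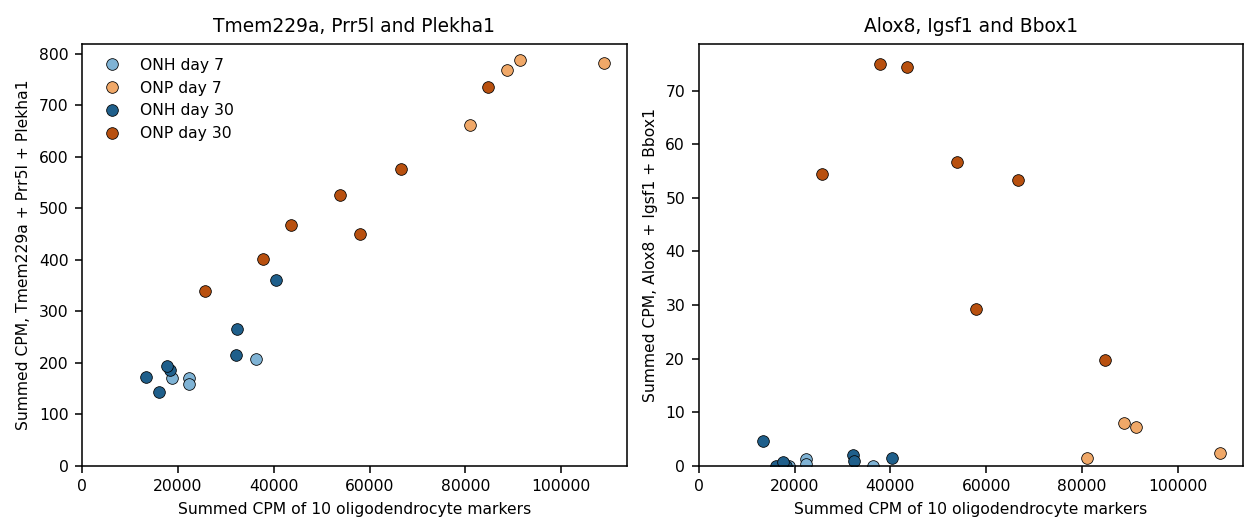
Each dot is a library, with the summed CPM of 10 oligodendrocyte markers on the horizontal axis and, on the vertical axis, the summed CPM of Tmem229a, Prr5l and Plekha1 (left) or of Alox8, Igsf1 and Bbox1 (right). On the left the summed CPM runs from 143.8 to 787 and tends to be higher where the marker sum is higher. At similar marker sums the ONP libraries lie above those of the ONH. For example, ONP day 30 replicate 3 is at 340 CPM with a marker sum of 25674. ONH day 30 replicate 4 is at 215 CPM with a marker sum of 32214. On the right the ONP libraries of day 30 (19.8 to 74.99 CPM) stand above all others. The lowest of them is the library with the highest marker sum of its group.

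The marker lists were followed from day 7 to day 30 in the ONP, where 17.0% of all genes tested were called (7.82% higher, 9.21% lower). Nothing is read from a single call in a list. Of the 10 oligodendrocyte markers 8 fell and 0 rose, with a median log2 fold change of −0.85 (−0.01 over all genes tested). Of the 10 astrocyte markers 1 rose (S100b, 0.62 ± 0.13) and 1 fell (Glul, −0.83 ± 0.24). Of the markers tested, 3 of 6 endothelial (median −1.68), 2 of 6 mural and meningeal fibroblast (−0.56), 2 of 3 pigment cell (−0.53), 1 of 4 photoreceptor (−2.19), 1 of 4 neuron (−0.68), 1 of 5 surface epithelium (−2.78) and 1 of 6 oligodendrocyte precursor (0.08) genes fell and 0 rose. Of 8 microglia markers (−0.43) and 2 pituitary markers (−0.44), 0 were called. With the mean log2 level of the oligodendrocyte markers as a covariate, the fall of Plekha1 in the ONP was −0.63 ± 0.11 (adjusted p = 0.0137), and Tmem229a and Prr5l were at 0.15 ± 0.15 and 0.32 ± 0.15 (adjusted p = 0.654 and 0.295), the opposite sign. Alox8, Igsf1 and Bbox1 were then at 2.92 ± 0.71, 2.64 ± 0.85 and 2.47 ± 0.95 and no longer past the threshold (adjusted p = 0.0509, 0.128 and 0.201). The interaction of Plekha1 was −0.80 ± 0.23 (adjusted p = 0.108), and that of Tmem229a and Prr5l was 0.0079 ± 0.20 and 0.013 ± 0.19. The covariate itself differed between the days, so day and marker level cannot be fully told apart in these libraries. The part of the other cell types in these results was not tested.

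The wider pathways of the members were followed in the ONP by their called genes, beside the 17.0% of all genes tested that were called there (7.82% higher, 9.21% lower). Of the 14 genes of carnitine synthesis and transport that were tested, 2 rose and 1 fell: besides Bbox1, these were the carnitine carrier Slc25a20 (0.36 ± 0.12, adjusted p = 0.04996) and the palmitoyltransferase Cpt2 (−0.33 ± 0.10, adjusted p = 0.0400), and both calls held in only 2 of 11 fits that left out a library. Each also held in only 4 of the 9 alternatives to the edgeR fit that are described below. The list median was −0.02, beside −0.01 over all genes.

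Of the 11 lipoxygenase and leukotriene genes tested, Alox8 alone rose. Alox5, the enzyme that starts leukotriene synthesis, fell by 2.50 ± 0.41 (adjusted p = 0.00259), from 11.1 ± 2.99 CPM (SD, n = 4) to 2.00 ± 1.43 CPM (SD, n = 7). Pla2g4a, the phospholipase that frees arachidonic acid, fell by 0.84 ± 0.14 (adjusted p = 0.00302). Each of these 2 falls was called in 8 of the 9 alternatives. The list median was −0.51.

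Of the 16 mTORC2 genes tested 2 rose and 3 fell, with a median of −0.02. The rises were those of Deptor (0.60 ± 0.19, adjusted p = 0.0480) and Akt2 (0.39 ± 0.10, adjusted p = 0.0236). The falls were those of the target kinase Sgk1 (−2.96 ± 0.40, adjusted p = 0.00103), the defining subunit Rictor (−0.78 ± 0.13, adjusted p = 0.00273) and the Sgk1 substrate Ndrg1 (−0.63 ± 0.14, adjusted p = 0.0108). Of the 9 alternatives, 8 kept the call of Sgk1, 8 that of Ndrg1 and 7 that of Rictor. Deptor and Akt2 were not put through these alternatives. Prr5l itself was not past the threshold in this comparison. Sgk1 was variable among the ONP pools of day 7, from 329 to 2053 CPM, all above the highest pool of day 30 (294.7 CPM).

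Of the 16 genes around PI(3,4)P2 and the TAPP adaptors, 3 fell, Plekha1, Inppl1 (the phosphatase SHIP2, which makes PI(3,4)P2, −0.84 ± 0.19, adjusted p = 0.0133) and Mpdz (a PDZ scaffold, −0.75 ± 0.13, adjusted p = 0.00298). Sntb1, a syntrophin, rose by 1.77 ± 0.50 (adjusted p = 0.0300), a call that held in 6 of 11 fits that left out a library. The call of Inppl1 held in 7 of the 9 alternatives, that of Mpdz in 9 and that of Sntb1 in 7 of the 8 that tested it. The list median was −0.11.

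Of the 13 thyroid hormone genes tested 2 rose and 3 fell, with a median of −0.14. The hormone-responsive gene Thrsp rose with Igsf1, by 2.26 ± 0.29 (adjusted p = 0.000776), from 31.4 ± 5.45 CPM (SD, n = 4) to 154.1 ± 51.3 CPM (SD, n = 7). The hormone transporter Slco1c1 (−1.38 ± 0.30, adjusted p = 0.0101), the receptor corepressor Hr (−1.06 ± 0.15, adjusted p = 0.00128) and Klf9 (−0.62 ± 0.19, adjusted p = 0.0452) fell. Of the 9 alternatives, 9 kept the call of Thrsp, 8 that of Slco1c1 and 8 that of Hr. Klf9 was not put through these alternatives. In the interaction, 0.543% of all genes were called, and of the 5 lists the calls were Plekha1 and Hr (−0.89 ± 0.21, adjusted p = 0.0491). That of Hr was kept in 2 of 22 fits that left out a library and in 2 of the 9 alternatives. In the ONH 0% of the 15668 genes tested were past the threshold, so no gene of the 5 lists could be, and nothing is read from that.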

How the data were processed

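RNA bound to HA-tagged ribosomes was sequenced from 22 pools after Smart-Seq amplification, which keeps neither strand nor molecule identity. The authors aligned reads to mm10 with STAR 2.6.1d, quantified them with Salmon 0.14.2 and deposited estimated counts (expected counts) per gene, which were rounded here. A deposited variance-stabilised table was not used. Day 30 columns were matched to samples by name. Day 7 columns name the group but not the sample, and were numbered in column order, as a name only.

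Counts were tested with edgeR 4.0.16 in R 4.3.3 (TMM, filterByExpr, quasi-likelihood test, Benjamini-Hochberg over all genes tested, threshold 0.05). DESeq2 1.42.0, limma-voom (limma 3.58.1), other normalisations, filters and a replicate block were alternatives. The code was tested on simulated data. No 2 libraries agreed within sampling noise. No batch is named. The members and gene lists were chosen with earlier results of these data known. Named genes are the members, their 3 nearest genes by RMS among genes with an SD of at least 1, and up to 3 called genes of each pathway list with the largest change. In the mTORC2 list, where these 3 all fell, the 2 that rose are named too. Klf9, the remaining call of the thyroid hormone list, is also named.

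At day 30 ONH and ONP libraries of a number were taken as coming from the same mice. All 7 pairs correlated positively in their deviations from group means (0.105 to 0.540). Only 3 of the 7 ONH libraries were best correlated with the ONP library of their own number.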

Additional observations from a re-analysis of the deposited data

Results flagged for a closer look

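Of the 23 combinations of a member and a group that held any count, 2 had a library far from the rest by Dixon's test, which flags about 1 in 20 groups by chance. Igsf1 in ONH day 7 replicate 1 was at 1.15 CPM while the other pools of the group held 0 or 1 count. Bbox1 in ONH day 30 replicate 3 was at 2.01 CPM, beside at most 0.39 CPM in the rest of the group. Without that library the fitted log2 ratio of Bbox1 at day 30 was 6.43.

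By the interaction test in edgeR, Plekha1 (−1.43, adjusted p = 0.0294) and Hr (−0.89, adjusted p = 0.0491) were past the threshold for a change that differed between the regions. Both calls depended on the fit. That of Plekha1 held in 7 of 9 alternatives and in 10 of 22 fits that left out a library. That of Hr held in 2 of 9 and 2 of 22. Plekha1 was also chosen on the regional values that this test uses. Plekha1 fell in the ONP and was not past the threshold in the ONH. Hr fell in the ONP, from 31.97 ± 6.46 CPM (SD, n = 4) to 15.7 ± 2.61 CPM (SD, n = 7), and was at 16.5 ± 0.98 CPM (SD, n = 4) and 14.6 ± 1.54 CPM (SD, n = 7) in the ONH.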

How the results depend on the processing

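The 4 members called in the ONP between the days were called in 6 of the 9 alternatives to the edgeR fit. With at least 10 counts in every sample 1 was left, the others failing the filter. With all 4 groups in a single fit 2 were called (and 1189 genes in place of 2638), and with the oligodendrocyte covariate 1 (429 genes). Under that covariate Tmem229a and Prr5l turned to 0.15 and 0.32 in the ONP and to 0.0079 and 0.013 in the interaction. Leaving out single ONP libraries gave 4 to 5 members and 1439 to 3214 genes, the lowest without ONP day 7 replicate 4. In the ONH no alternative called a member, whereas the genes called were 0 in the reported fit, 448 by DESeq2, 292 with all 4 groups, 2 with no filter, 1 with the covariate and 0 to 167 without single libraries. In the interaction, 1 member and 91 genes were called; DESeq2 gave 2 members (Alox8, 3.41, adjusted p = 0.0371, being added) and 409 genes, limma-voom 55 genes, no filter 50 genes, and the library total alone and the covariate each 0 members. Without single libraries the interaction gave 0 to 1 members, 22 to 318 genes and, for Igsf1, −1.91 to 2.64, with the reversal without ONH day 7 replicate 1. The regional log2 ratios, which carry no test, kept their sign in every alternative. They moved by more than the spread between pools for Tmem229a at day 7 with the library total only (2.25), and for Igsf1 and Bbox1 at day 30 by limma-voom (6.59 and 6.41). The cause of these changes was not tested.

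With the replicate number as a block at day 30, the log2 ratio of the ONP over the ONH was 1.74 for Tmem229a, 1.303 for Prr5l and 0.66 for Plekha1. In the interaction, the replicate block (limma-voom) left Plekha1 called (−1.40, adjusted p = 0.0162) with 161 genes past the threshold, and changed the call of no other member. At day 7 the column numbers do not match the sample titles, but 3 of them recur in both regions. A block on these 3 pairs, chosen after seeing the data, gave 2.34, 1.95, 1.95 and 3.12 for Tmem229a, Prr5l, Plekha1 and Igsf1. The deviations of the pairs from their group means correlated at 0.0129, 0.0217 and 0.174, with 2 of 3 ONH libraries best correlated with the ONP library of their own number, so the numbers are not taken as a pairing. Counts of 0 to 12 in the ONH limit what can be said there of Alox8, and those of Igsf1 and Bbox1 rest on few libraries.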
